A study of Mus musculus with 6 samples.

Results

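A group of 432 mouse genes had 5 or more promoter fragments each in the HiCap interaction lists. They held 2570 promoter fragments, out of 21202 genes and 30713 promoter fragments listed in all. A gene was included when the lists of the 2 HiCap replicates together named at least 5 different restriction fragments as its promoters. A fragment is listed when it has at least 1 interaction, and 1 of the 2 lists was enough. Fragments with few interactions in 1 list alone thus counted toward membership. The numbers of interactions per fragment given below are not independent of this rule. HiCap is Hi-C followed by sequence capture of promoter fragments, and Hi-C joins and sequences DNA fragments that lie close to each other in the nucleus. Chromatin of undifferentiated R1 cells, an untreated mouse embryonic stem cell (mESC) line kept with serum and LIF, was crosslinked and cut with MboI, which recognizes 4 bases, before ligation. The lists used here came from 2 HiCap replicates and from Hi-C of the same line, for which 2 replicates were pooled in 1 list. All groups are this 1 line, no second condition was compared, and the lists carry neither read numbers nor depth. An interaction was called when the same promoter fragment and the same distal region stood in both HiCap lists.

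Many mammalian genes start transcription at more than 1 place. Such alternative promoters can give transcripts with other first exons, other protein ends or another tissue range, and the promoter used in most tissues is often rich in CpG, the dinucleotide of a cytosine followed by a guanine. Distal regions such as enhancers act on promoters that they approach in space, and a region may reach 1 promoter of a gene or several. A method that resolves single restriction fragments can tell the promoters of 1 gene apart where they lie on different fragments.

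To show what promoters of 1 gene can look like beside each other, 4 genes are given with 2 fragments each. The sequences are the 160 bases just before the 5′-most GENCODE transcription start in the fragment, read 5′ to 3′ on the coding strand from mm9, with every CG in capitals. For Ank1, Acsl1 and Rabgef1 the first line is the 5′-most promoter, with 0, 4 and 4 called interactions, and the second is the promoter with the most, with 19, 46 and 65. For Bcas3 the first line is the 5′-most promoter, with 32, and the second a later one with 0. The 4 genes were chosen by no fixed rule. Over the group the 5′-most promoter had a called interaction more often than later ones, as given below. Ank1, Acsl1 and Rabgef1 go the other way. The letters CG occurred 27, 14, 21 and 14 times in the 4 windows of 5′-most promoters and 2, 1, 1 and 7 times in the others. Across all 26369 windows of this kind the median was 4, and 89.1% held at least 1 CG. In the 432 genes the median was 10 for the 5′-most promoters and 2 for the later ones. Promoters are numbered 5′ to 3′ throughout. The last sequence is the whole of promoter fragment 6 of Fgfr1, which is 25 bases long, holds no CG and had 31 called interactions.
Ank1 fragment 1, chr8:24085156-24085315: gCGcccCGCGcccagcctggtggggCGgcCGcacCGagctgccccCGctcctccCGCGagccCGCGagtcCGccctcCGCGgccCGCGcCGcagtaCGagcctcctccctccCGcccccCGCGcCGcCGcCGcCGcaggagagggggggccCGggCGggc
Ank1 fragment 3, chr8:24206413-24206572: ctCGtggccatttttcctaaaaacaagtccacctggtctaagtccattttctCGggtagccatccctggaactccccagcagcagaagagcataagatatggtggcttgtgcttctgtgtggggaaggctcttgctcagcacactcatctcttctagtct
Acsl1 fragment 1, chr8:47556235-47556394: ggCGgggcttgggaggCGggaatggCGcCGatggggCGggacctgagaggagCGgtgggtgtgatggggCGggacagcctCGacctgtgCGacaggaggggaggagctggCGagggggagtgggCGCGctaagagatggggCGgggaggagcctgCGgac
Acsl1 fragment 2, chr8:47576168-47576327: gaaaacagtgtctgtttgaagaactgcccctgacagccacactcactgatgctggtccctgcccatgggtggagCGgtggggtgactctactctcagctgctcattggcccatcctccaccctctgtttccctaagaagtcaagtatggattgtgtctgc
Rabgef1 fragment 1, chr5:130647508-130647667: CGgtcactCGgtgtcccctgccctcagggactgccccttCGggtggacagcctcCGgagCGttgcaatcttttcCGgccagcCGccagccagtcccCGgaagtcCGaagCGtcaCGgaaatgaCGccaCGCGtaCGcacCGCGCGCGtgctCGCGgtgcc
Rabgef1 fragment 2, chr5:130662871-130663030: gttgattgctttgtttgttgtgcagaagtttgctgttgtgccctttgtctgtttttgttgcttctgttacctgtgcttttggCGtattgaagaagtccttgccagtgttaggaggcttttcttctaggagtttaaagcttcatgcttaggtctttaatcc
Bcas3 fragment 1, chr11:85166509-85166668: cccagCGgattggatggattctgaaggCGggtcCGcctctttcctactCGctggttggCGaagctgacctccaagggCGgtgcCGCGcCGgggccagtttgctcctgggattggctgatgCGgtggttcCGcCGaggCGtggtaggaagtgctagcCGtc
Bcas3 fragment 5, chr11:85322969-85323128: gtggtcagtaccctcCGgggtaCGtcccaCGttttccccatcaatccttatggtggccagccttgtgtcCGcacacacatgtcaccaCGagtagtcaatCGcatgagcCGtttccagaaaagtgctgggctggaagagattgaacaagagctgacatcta
Fgfr1 fragment 6, chr8:26679935-26679959: tctcttaagttcaaggccagtctga

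The number of promoter fragments per gene was 5 in 221 genes, 6 in 110, 7 in 51, 8 in 26 and 9 in 11, while 13 genes had 10 or more. Just below the limit, 619 genes had 4. Ncor1, which encodes a corepressor of nuclear receptors, and Wnk1, a kinase that controls ion transport, had the most, with 14 each. All fragments of a gene lay on 1 chromosome, and they spanned a median of 60.8 kb (quartiles 31.1 and 124 kb). The gap between neighbouring fragments had a median of 7695 bp, 33 of 2138 gaps were 0 bp, and promoter 1 of Fgfr2, a fibroblast growth factor receptor, lay over 1 Mb from the next. Chromosomes 2 and 11 held 132 of the genes (30.6%), compared with 3729 of all 21202 listed genes (17.6%). GENCODE placed a start of the gene in 2431 of the 2570 fragments (94.6%), but a start of a protein-coding transcript in only 1091 (42.5%). For 17 genes the annotation held no gene of that name, so their fragments were left out wherever the order along the gene was needed.

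Many of these fragments had few listed interactions, and their HiCap lists are given here beside Hi-C, where nothing was captured. A total of 1623 fragments (63.2%, exact binomial 95% interval 61.3 to 65.0) had at most 5 listed distal regions in each HiCap replicate. Together these listed 3068 interactions in replicate 1, 1778 in replicate 2 and 2009 in Hi-C, or 1.53 and 0.885 HiCap interactions per Hi-C interaction. The other 947 fragments listed 21145, 27930 and 3111, or 6.80 and 8.98 per Hi-C interaction. Fragments with few listed regions were 38.7% (38.1 to 39.2) of those of all other genes and 31.7% of those of genes with 1 promoter. The 2 sets of fragments were separated by their HiCap lists, which fixes the direction of the ratios, and the ratios do not show which fragments were captured. The fragments are called listed promoters below, which is what the files give. The study placed probes at the restriction sites nearest to annotated starts. How far probe placement goes with the counts was not tested over all genes.

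Of the 2570 listed promoters of these genes, 1106 (43.0%, 41.1 to 45.0) had a called interaction, against 14786 of 28143 in the other genes (52.5%, 52.0 to 53.1) and 51.7% of all listed promoter fragments. A call needs the promoter in both lists, so a promoter listed in 1 replicate alone counts as without a call. Replicate 1 listed 2296 of the 2570 promoters and replicate 2 listed 1914. The intervals of the 2 groups do not overlap, but they leave out that promoters of 1 gene are not independent of each other. The share with a call stood below the background, and the difference was not tested. The share was 55.2, 49.9, 48.9 and 47.2% in genes with 1, 2, 3 and 4 listed promoters. Over whole genes the order was the opposite, since 394 of the 432 genes (91.2%) had a called interaction and 60.1% of the other genes did. A gene with more listed promoters has more chances of a call, and values per gene were not adjusted for this. The 432 genes had 5123 called interactions, which is 11.9 per gene against 4.32 in the others, but 1.99 per promoter against 3.19. Replicate 1 listed 24213 interactions for them and replicate 2 listed 29708, of which the called ones made up 21.2 and 17.2%.

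The 5′-most promoter had a called interaction more often than the later ones. Among the 415 genes with a known strand it had a called interaction in 275 (66.3%, 61.5 to 70.8), while 38.2% (35.9 to 40.6) of promoters between the outermost ones and 38.1% (33.4 to 42.9) of the 3′-most ones did. The mean number of listed interactions at the 5′-most promoter was 21.6 in replicate 1 and 28.3 in replicate 2, against 7.12 and 8.44 at the later promoters. Called interactions averaged 4.60 and 1.49, and Hi-C interactions 2.71 and 1.83. The contrast was thus present in every list and was narrowest in Hi-C. Few listed regions, at most 5 in each replicate, were found at 24.8% of 5′-most and 70.8% of later promoters. A call is made of listed regions, so this measure and the share with a call are not independent of each other.

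**Figure D1:**
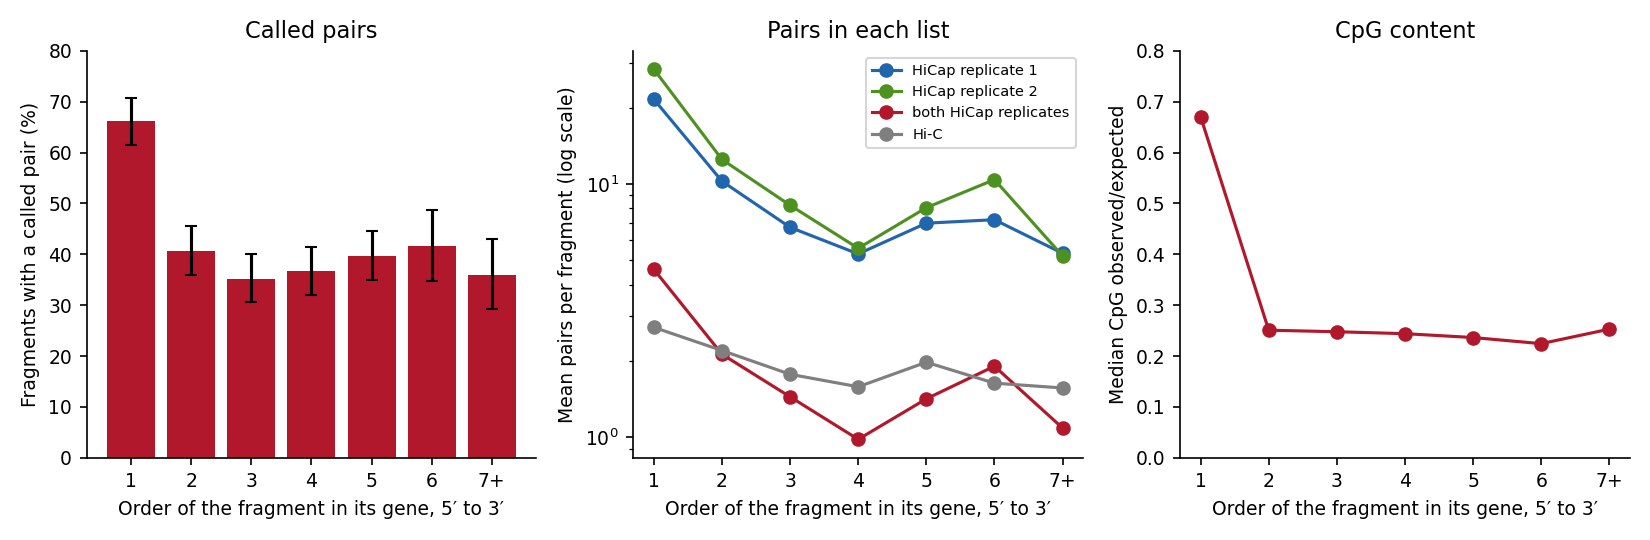
Promoter fragments of the 415 genes by their order along the gene (x axis, 7+ is the seventh and later). Left, share with a called interaction with exact binomial 95% intervals; middle, mean listed interactions per fragment on a log axis for each list; right, median CpG observed/expected ratio. The first fragment has 66.3% called and a median CpG ratio of 0.670, and from the second on the shares lie between 35.2 and 41.6%. In Hi-C the means are 2.71, 2.20 and 1.77 at fragments 1, 2 and 3, with no step at the first.

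CpG content differed along the gene as well. The ratio of observed to expected CpG in the fragment, which is near 1 when CpG is not depleted, had a median of 0.670 in 5′-most and 0.245 in later promoters, and 0.375 over the other genes. Promoters with a ratio of 0.75 or more had a call in 65.9% (59.2 to 72.2) of 217, and those under 0.25 in 37.1% (34.3 to 40.0) of 1115. Within each place the order by CpG was the same, but the intervals overlapped. Among 5′-most promoters the shares were 71.8% (64.04 to 78.7) at 0.75 or more and 53.1% (38.3 to 67.5) under 0.25, and among later promoters they were 50.8% (37.7 to 63.9) and 36.4% (33.5 to 39.4). Later promoters with a protein-coding start had a call in 43.7% (40.0 to 47.4) and those without in 35.3% (32.7 to 37.9). Few listed regions were found at 60.1 and 76.6% of these promoters, and their part in the difference was not tested. Words of 25 bases that occur once in mm9 made up a median of 99.9% of a fragment. Promoters with under 80% of such words had a call in 39.3% (30.6 to 48.6) of 122, against 43.2% (40.4 to 46.0) of 1235 promoters made of such words alone. Called interactions averaged 1.11 and 1.93 at these promoters. The averages were 2.14 at 80 to under 95% and 2.13 at 95 to under 100%, and the difference was not tested.

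The 10 genes with the most called interactions divided them in different ways. Atp5b, the beta subunit of mitochondrial ATP synthase, led with 115. Its promoter 1, chr10:127518798-127520576, listed 239 and 203 interactions by replicate, with 88 called, and promoter 4 listed 72 and 78, with 19 called, while the other 3 had 2 or 3 called each. Pemt, an enzyme that makes phosphatidylcholine, had 72 of 100 called interactions at promoter 1, which listed 209 and 271, and 23 at promoter 3, which listed 62 and 143. In both genes Hi-C ranked the same promoters highest, with 9 and 3 interactions in Atp5b and 22 and 11 in Pemt.

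In the other 8 genes the leading promoter was not the 5′-most one. Rabgef1, an exchange factor for a small GTPase of early endosomes, had 65 of 69 called interactions at promoter 2, chr5:130662096-130663175, which listed 270 and 211. Promoter 1 listed 44 and 35 with 4 called, and Hi-C gave 16 at promoter 2 and 4 at promoter 1. Srebf1, a transcription factor of lipid synthesis, had 48 of 68 at promoter 7, the 3′-most, chr11:60014315-60014969, which listed 113 and 207, while promoter 2, with 2 protein-coding starts, listed 30 and 42 with 14 called. Hi-C had the same order, with 16 interactions at promoter 7 and 5 at promoter 2. Myo18a, an unconventional myosin, had 47 of 65 at promoter 3 of 11, which listed 106 and 181 and had 16 in Hi-C. Promoter 5 had 14 in Hi-C but listed only 17 and 6, with 3 called. Acsl1, which activates long-chain fatty acids, had 46 of 87 at promoter 2 (86 and 192 listed) and 28 at promoter 5 (70 and 172), against 4 at the CpG-rich promoter 1 (18 and 34). Hi-C had 10 at promoter 5 and 7 at promoter 2. Plec, the cytoskeletal linker plectin, had 35 of 83 at promoter 3 (125 and 118 listed), 15 at promoter 1 (51 and 62) and 2 to 12 at the other 4. Hi-C had 5 at promoter 3 and 6 at promoter 1, so it did not rank promoter 3 highest.

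In 3 of these genes several promoters stood close to each other. Fgfr1, a fibroblast growth factor receptor, had 1, 8, 8, 9, 24 and 31 called interactions at promoters 1 to 6. Promoter 5 led in replicate 1 (62, against 58 at promoter 6) and in replicate 2 (200 against 169), and promoter 6 led in called interactions and in Hi-C (21 against 6), so the leader depends on the list. Promoter 6 is the fragment of 25 bases, without a protein-coding start. That sequence has 1 exact match in mm9, and near matches were not counted. The fragment is shorter than the sequenced reads, and how this goes with its numbers was not tested. Fam38a, the gene now named Piezo1 for a mechanosensitive channel, had 29 of 85 at promoter 5 (80 and 191 listed), 28 at promoter 6 (59 and 115) and 18 at promoter 1 (37 and 67). In Hi-C promoter 6 had 14 and promoter 5 had 2. Myo10, a myosin of filopodia, had 18 of 67 at promoter 5, 9 to 13 at each of promoters 6 to 9, and 5 at promoter 1, which listed 40 and 36. Promoter 5 led in replicate 1 (89, against 69 at promoter 9) and promoter 9 in replicate 2 (67, against 54 at promoter 5). Hi-C had 3 at promoter 5 and 9 at promoter 9.

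**Figure D2:**
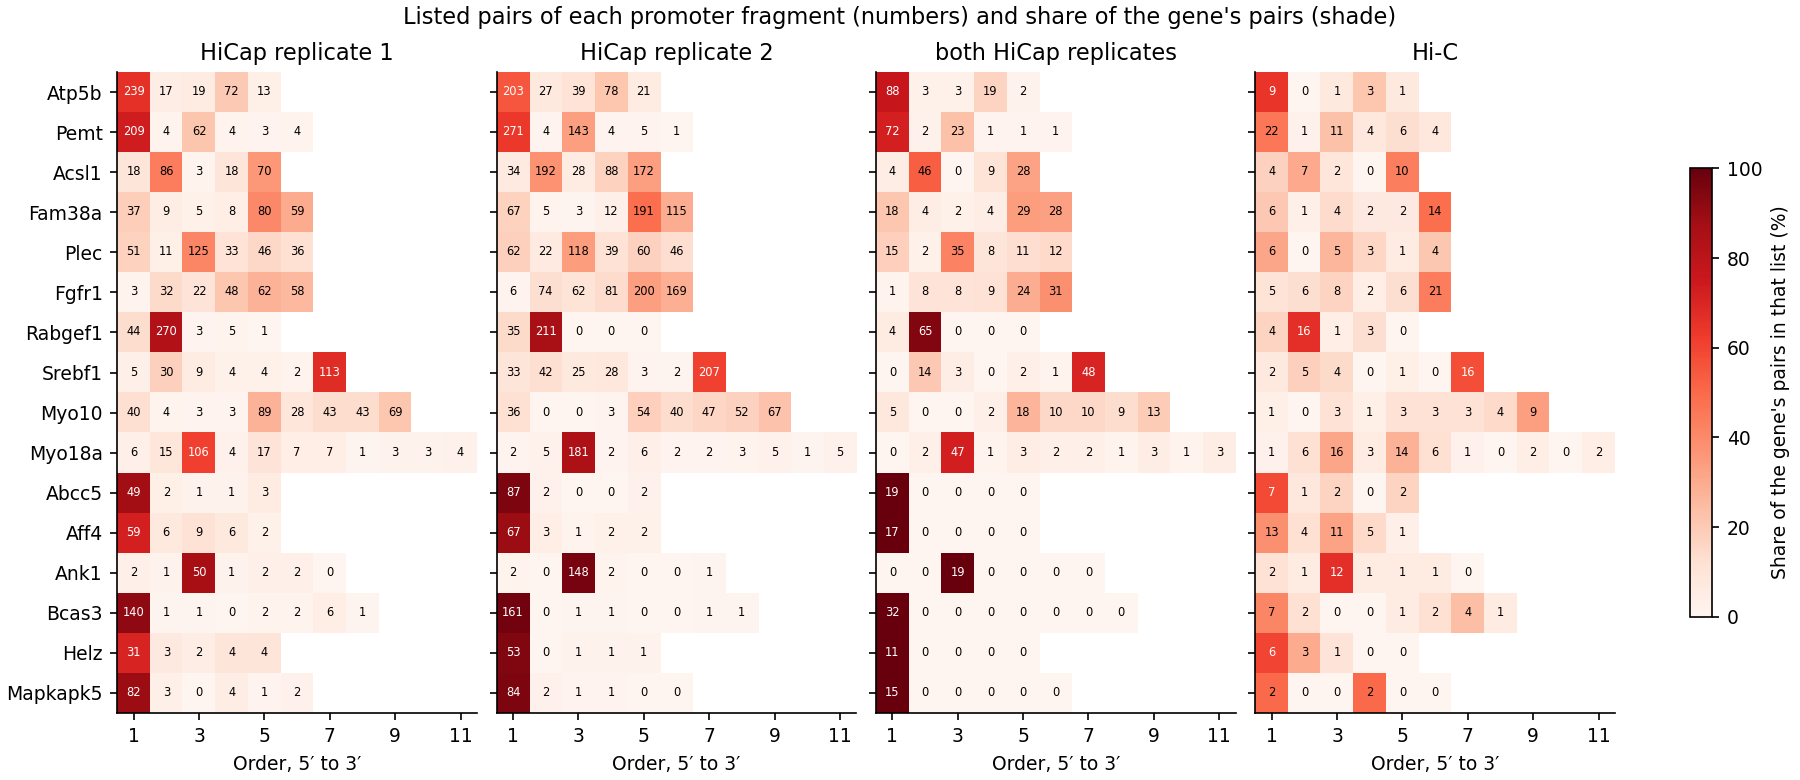
Listed interactions of each promoter fragment (columns, order 5′ to 3′) in the 10 genes with the most called interactions and 6 of the 11 genes with all called interactions at 1 fragment (rows). Each panel is 1 list, numbers are interactions and the shade is the share of the gene's interactions in that list. The leading fragment is mostly the same in both replicates, as in Srebf1 with 113 and 207 at fragment 7, and in Srebf1 Hi-C has 16 there.

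A promoter was counted as dominant when it held over 50% of the called interactions of a gene with 5 or more. This was so in 161 of 240 genes (67.1%, 60.7 to 73.0), while it was 89.9% of all genes with 2 or more listed promoters and 5 or more calls. By number of promoters the share was 98.2, 89.3, 80.8 and 74.1% for genes with 2, 3, 4 and 5 and 61.4% for those with 6 or more, so the group's value has to be read against that order. The leading promoter held a median of 61.2% (quartiles 46.1 and 84.3%), and the effective number of promoters, the inverse of the summed squared shares, had a median of 2.14. In 29 genes (12.1%) all called interactions were at 1 promoter. Leading promoters, chosen by their called interactions, listed a median of 42.5 interactions in replicate 1, 54.5 in replicate 2 and 3.5 in Hi-C, and the 1227 other promoters of these genes 3, 2 and 1.

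Among genes with 5 or more called interactions, the lists of the 2 replicates mostly named the same leading promoter. This was so in 203 of the 223 with a single leader in both (91.0%, 86.5 to 94.4). A call needs the same promoter in both lists, so this choice of genes favours such a match and the share does not measure reproducibility. The leader in called interactions and in Hi-C was the same in 84 of 171 genes (49.1%, 41.4 to 56.9), where an even division over a gene's promoters would mean 17.3% per promoter, and in 58 of 114 genes with 10 or more Hi-C interactions (50.9%). In Hi-C the leading promoter held a median of 40.0% in the 203 genes with 5 or more Hi-C interactions. The leader was the 5′-most promoter in 114 of 217 genes (52.5%, 45.7 to 59.3), in 52.7 and 54.3% by the lists of replicates 1 and 2, and in 35.8% (28.7 to 43.5) by Hi-C. The 114 leaders at the 5′ end had a protein-coding start in 95.6% and a median CpG ratio of 0.701. The 103 leaders elsewhere had one in 58.3%, and their median ratio was 0.226.

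**Figure D3:**
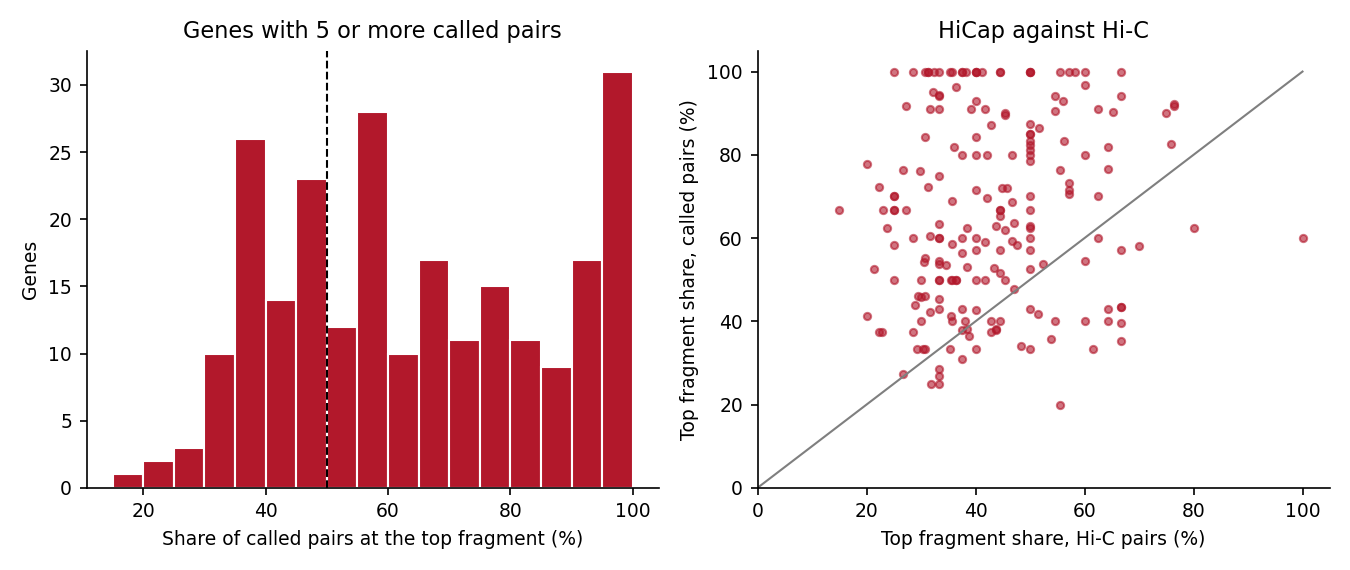
Left, share of called interactions at the leading promoter fragment (x axis, %) in the 240 genes with 5 or more called interactions, with the limit of 50% dashed; each bar includes its upper edge. Right, the same share (y axis) against the leading share in Hi-C (x axis) for the 203 genes with 5 or more Hi-C interactions, 1 point per gene, with the line of equality. The medians are 61.2% for called interactions and 40.0% for Hi-C, and most points lie above the line.

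Of 160 genes with 10 or more called interactions, 11 had all at 1 promoter. The 6 first by name were Abcc5, Aff4, Ank1, Bcas3, Helz and Mapkapk5. In 5 of them it was the 5′-most promoter, with 19 calls in Abcc5, a membrane transporter, 17 in Aff4, a scaffold of the super elongation complex, and 11 in Helz, a helicase. Bcas3, a protein of cell migration, listed 140 and 161 there and at most 6 at any of the other 7, and Mapkapk5, a protein kinase, listed 82 and 84 there and at most 4 elsewhere. Ank1, which anchors the membrane skeleton of red cells, was the exception. Its promoter 3, chr8:24206320-24206992, listed 50 and 148 and 12 in Hi-C, while promoter 1, with a CpG ratio of 0.982 and 3 protein-coding starts, listed 2 in each replicate and 2 in Hi-C. The least concentrated were AC155074.2, Fgfr2, Myo10, Wnk1, Egfl7 and Usp48, with at most 33.3% at the leader. Egfl7, a secreted endothelial factor, had 9, 1, 3, 9 and 7 called interactions along its 5 promoters, and in replicate 2 these listed 74, 34, 27, 73 and 75. Fgfr2 had at most 3 of 12 at any promoter, and Usp48, a ubiquitin protease, had 4 of 12 at promoter 1 (12 and 30 listed). AC155074.2, for which the files give no role, had 2 to 5 at each of 6 promoters.

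Of the 10 genes with the most promoters, only Myo18a was also among the 10 with the most called interactions. Ncor1 had 34 of 47 called interactions at promoter 2 (82 and 119 listed) and 6 at promoter 13 (27 and 53), and 8 of 14 promoters had none. Promoter 2 of Ncor1 directly adjoins promoter 1, holds 8 protein-coding starts and has a CpG ratio of 0.989. Wnk1 had 3 at promoter 1 (62 and 17 listed), 3 at promoter 14 (33 and 11) and 5 more at 4 others. Atxn2, which encodes an RNA-binding protein, had 12 of 29 at promoter 1 of 11. Arhgap26, a GTPase-activating protein, had 27 of 32 at promoter 1 of 10, and Huwe1, a ubiquitin ligase, had 5 of 11 at promoter 2 of 10. Etl4 listed 25 and 60 at promoter 5, with all 4 called interactions, and 0 in replicate 1 and 1 or 2 in replicate 2 at each of the other 10. Lrrc16a, a regulator of actin filaments, had 10 promoters and no call, and listed 1 to 3 interactions at each promoter in replicate 1 and none in replicate 2. Kdm2b, which binds CpG islands, and Sema4d, a semaphorin, had 8 promoters and no call, although Kdm2b listed 7 and 12 at promoter 5 and Sema4d 18 and 1 at promoter 1. In all, 38 genes had no called interaction, 110 had calls at 1 promoter, 201 at 3 or more, and 33 at every promoter.

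From a list of 56 genes with alternative promoters known from textbooks, 9 were among the 432 genes, 44 had 1 to 4 listed promoters and 3 had none. Called interactions were found for 8 of the 9. Plec and Ank1 are described above. Nrxn2, a presynaptic adhesion protein, had 16 of 17 at promoter 1 (49 and 111 listed). Gnas, an imprinted gene for the stimulatory G protein alpha subunit, had 8 at promoter 1 (23 and 36), 1 at promoter 2 (12 and 13) and 5 at promoter 4 (30 and 52). Promoter 4 led in both replicates and promoter 1 in called interactions and Hi-C. Bdnf, a neurotrophin whose many first exons serve different stimuli in neurons, listed 17 and 25 at promoter 1 and 13 and 18 at promoter 5, each with 1 called, and 0 to 2 at the 3 between. Auts2, a gene of brain development, had 4 of 5 at promoter 4 (16 and 39), Tcf7l2, a Wnt pathway factor, had 3 of 6 at promoter 1 (18 and 22), and Macf1, which links actin and microtubules, had 3 in all. Grb10, an imprinted adaptor of insulin signalling, had none. It listed 3 and 17 at promoter 1, while its other 5 were listed in replicate 1 alone.

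The promoters of a gene shared distal regions. Of 4139 called distal regions of the 432 genes, 576 (13.9%, 12.9 to 15.0) were called for 2 or more promoters of the gene. Over all genes with 2 or more listed promoters the share was 9.86%. That background includes the 432 genes, and genes with fewer promoters have fewer chances to share. The share was 14.0% over genes with 4 or more promoters and 15.5% over those with 6 or more, and no difference was tested. Of the 576 regions, 343 were shared by 2 promoters, 122 by 3, 66 by 4, 31 by 5 and 14 by 6 or more. They held 1560 of the 5123 called interactions (30.5%). Of the 284 genes with calls at 2 or more promoters, 213 had a shared region. Among pairs of promoters of 1 gene that both had a call, fewer of the more distant ones shared a region. A region was shared by 86.0% (80.9 to 90.1) of 235 such pairs up to 5 kb apart and 73.9% (68.9 to 78.4) of 352 at 10 to 20 kb. At 50 to 100 kb it was 50.9% (44.1 to 57.7) of 218 pairs, and over 100 kb 16.7% (9.64 to 26.0) of 90. Promoters without a call were left out of these pairs. Pairs of promoters of 1 gene are not independent of each other.

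**Figure D4:**
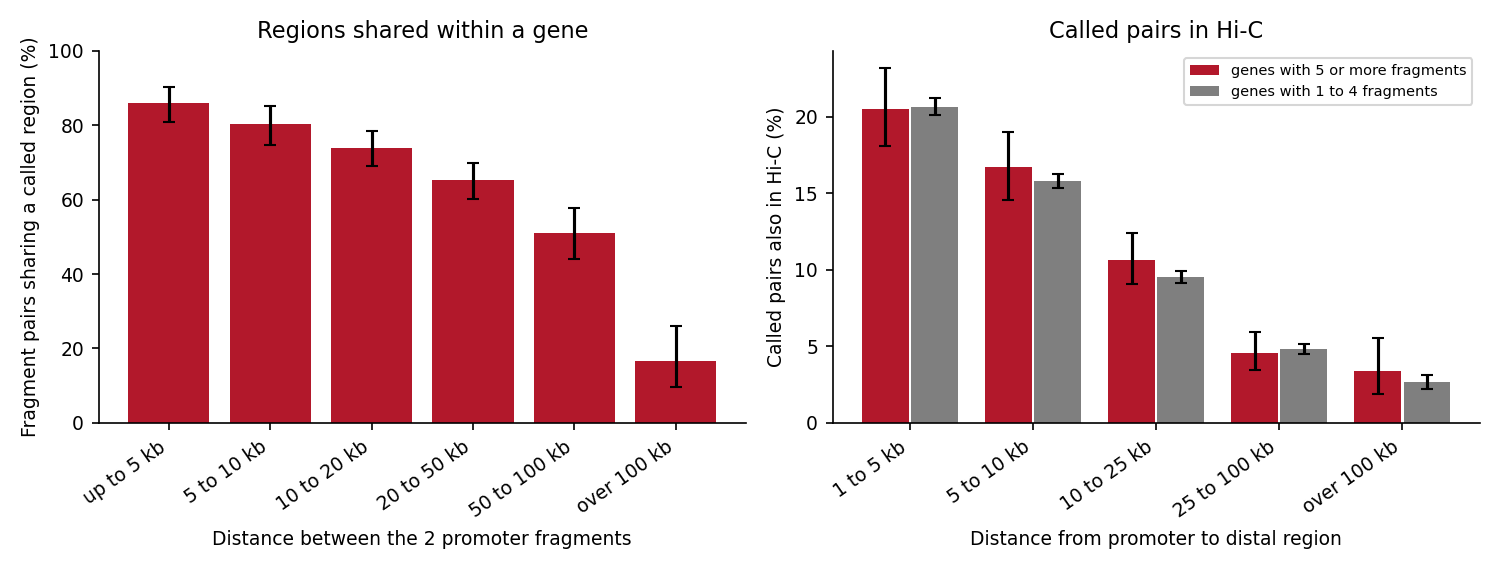
Left, share of pairs of promoter fragments of 1 gene, both with a call, that share a called region (y axis, %) by the distance between the fragments (x axis). Right, share of called interactions that are also in Hi-C (y axis, %) by distance to the distal region (x axis), for genes with 5 or more listed fragments (red) and genes with 1 to 4 (grey). Bars carry exact binomial 95% intervals; sharing is 86.0% up to 5 kb and 16.7% over 100 kb, and the Hi-C shares are 20.5 and 20.7% at 1 to 5 kb and 3.39 and 2.65% over 100 kb.

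Fgfr1 and Plec had the most shared regions, 20 each of 54 and 56. Fam38a had 17 of 55, Acsl1 had 15 of 64, and Atp5b had 13 of 100. Hoxd3, a homeobox gene with 26 of 43 called interactions at promoter 6, had 12 shared regions. All 6 promoters of Fgfr1 reached chr8:26684199-26685726, a region with an exon of the gene, 5.02 kb from the nearest and 60.7 kb from the farthest of them. This region was called for 5 genes, Fgfr1 included, and for 12 promoter fragments in all. Of its 6 interactions with Fgfr1, 2 were in Hi-C. The region shared by the most promoters was chr11:77690176-77691654, an intergenic region 17.1 kb from the nearest and 100.3 kb from the farthest of 8 promoters of Myo18a. It was also called for 10 other genes and for 25 promoter fragments in all, and 4 of the 8 interactions were in Hi-C. Regions shared by 7 promoters, each over an exon of the gene, were found in Atxn2 (chr5:122264844-122265246, called for no other gene), Usp48 (chr4:137193602-137195207) and Stat3, the transcription factor that acts after LIF, which is named here after its values were seen (chr11:100747535-100748689). Those of Usp48 and Stat3 were called for 4 and 8 genes, these genes included. Exons overlapped 243 of the shared regions (42.2%), 213 lay in introns alone and 120 (20.8%) were intergenic.

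Shared and unshared regions were compared in measures outside the definition of sharing, with no test. Being called for another gene is not independent of sharing, because both count the promoter fragments a region is called from. Shared regions had a median length of 821 bp (n = 576) against 585 bp (n = 3563), and 63.5% (59.5 to 67.5) were also called for another gene, against 21.5% (20.1 to 22.9). The distance to the nearest promoter of the gene was alike, with medians of 7.62 and 7.77 kb. Promoters with few listed regions took part in 201 of the 576 (34.9%). Their 452 called interactions ended in 423 cases (93.6%, 90.9 to 95.7) at a region called from another promoter fragment, with a median of 7 fragments of any gene per region. For the other promoters this was 40.7% (39.3 to 42.1) of 4671, with a median of 1.

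**Figure D5:**
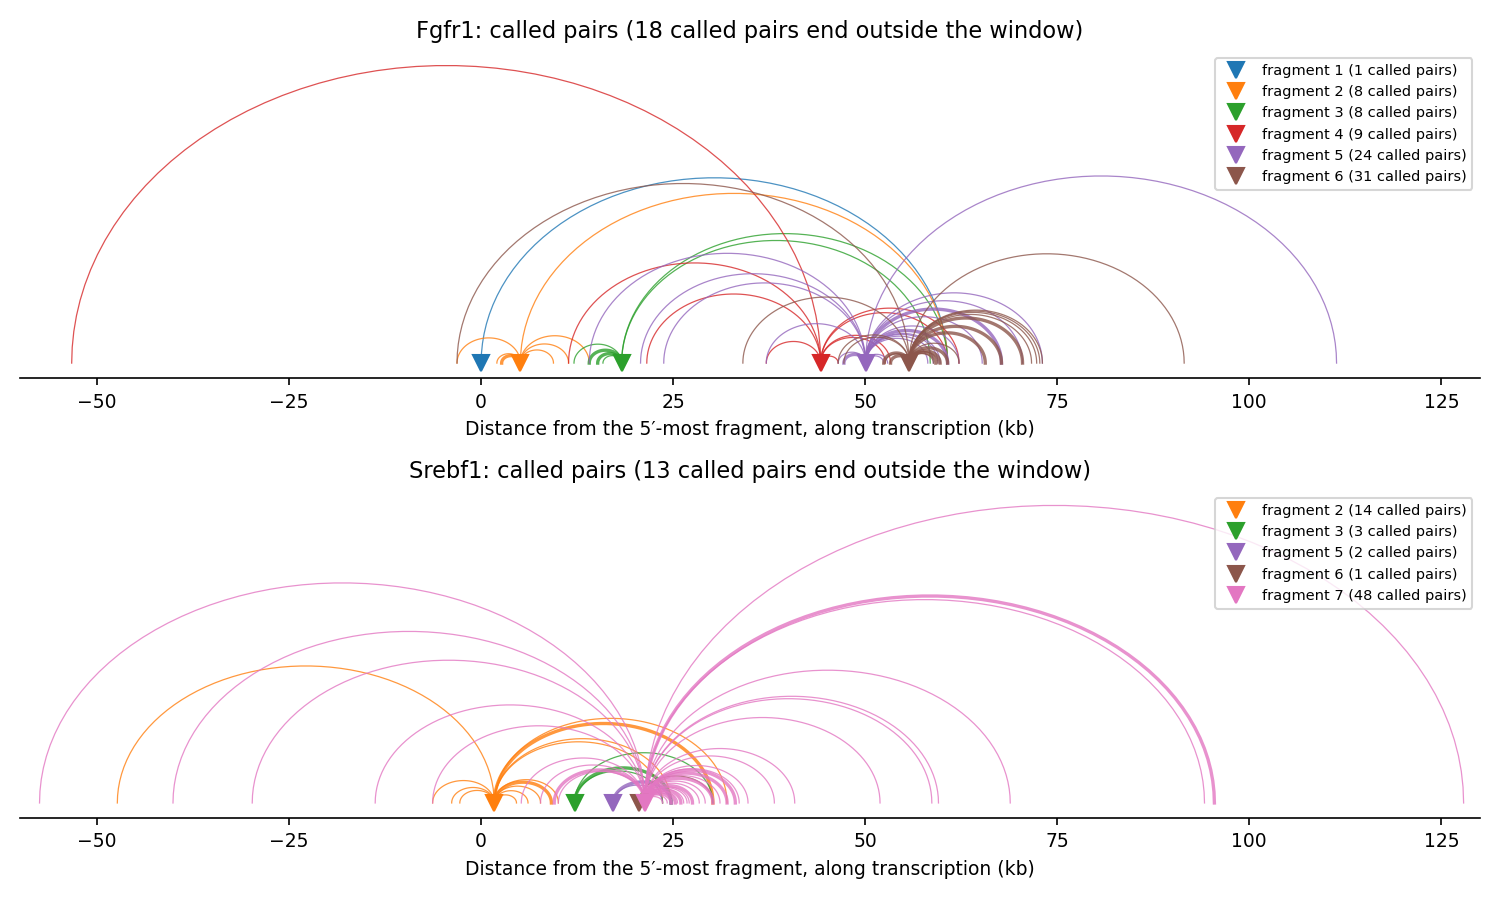
Called interactions of Fgfr1 (top) and Srebf1 (bottom), drawn as arcs from the promoter fragment (triangle, one colour each) to the distal region. The x axis is the distance from the 5′-most fragment along the direction of transcription in kb, and thick arcs are also in Hi-C; calls that end outside the window are counted in the titles, and fragments without a call are not drawn. In Fgfr1 fragments 5 and 6 carry 24 and 31 interactions, and in Srebf1 fragment 7 carries 48 of 68.

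Regions were called with near and far promoters of their gene. The called promoter was the nearest one of the gene in 2455 of 5123 interactions (47.9%, 46.5 to 49.3), and in 1175 (22.9%) at least 3 promoters of the gene lay nearer. The distal region lay between the outermost promoters in 2015 (39.3%). Called interactions spanned a median of 13502 bp in the 432 genes and of 10198 bp in all others. At the level of the gene, 5442 distal regions stood in both replicate lists, and for 1303 of them the replicates named different promoters, so that 4139 (76.1%, 74.9 to 77.2) counted as called.

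Hi-C held 605 of the 5123 called interactions (11.8%, 10.9 to 12.7), against 12.5% (12.3 to 12.7) of those of the other genes and 12.5% of all called interactions, so the value lay near the background. By distance the share was 20.5% (18.1 to 23.2) at 1 to 5 kb, 10.7% (9.08 to 12.4) at 10 to 25 kb and 3.39% (1.91 to 5.52) over 100 kb, and in the other genes the shares were 20.7, 9.55 and 2.65%. Leading promoters had 11.7% (10.5 to 12.9) of their called interactions in Hi-C and the other promoters of these genes 12.8% (11.3 to 14.5). Seen from Hi-C, 32.0% (29.3 to 34.9) of the 1093 Hi-C interactions of leading promoters were called in HiCap, and 9.40% (8.26 to 10.6) of the 2404 of the others, a description since called interactions chose the leaders. Interactions at shared regions were in Hi-C in 16.9% (15.0 to 18.8) and those at unshared regions in 9.60% (8.65 to 10.6). A total of 185 genes had a called interaction in Hi-C. The most were found in Fam38a with 18, of which 8 were at promoter 6 and 6 at promoter 1, Fam129b and Fgfr1 with 15, Fbf1, a protein of the ciliary base with 36 of 50 called interactions at promoter 1, with 14, and Myo18a and Srebf1 with 13, of which 10 and 9 were at the leading promoter.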

How the data were processed

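HiCap and Hi-C were carried out by the authors on R1 mESCs. The authors mapped both read ends separately to mm9 with HiCUP and Bowtie, trimmed iteratively, discarded duplicates, reads with several positions and pairs under 1 kb apart, and kept interactions with at least 3 read pairs per replicate. For Hi-C the threshold is not given in the sources used here. The deposited values are no counts or other read measure: they are positions of promoter fragments, with a gene name, and of distal regions, with no read numbers, so depth is unknown. Coordinates are given from 1. Capture-C samples were not used here.

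Distinct pairs in both HiCap lists were called. Distances run between midpoints. Starts, strands, exons and sequence came from GENCODE and the mm9 genome. Genes without a strand were ordered by coordinate. Shares carry exact binomial 95% intervals (SciPy 1.17.1), which cover counting error only, and interactions sharing a fragment are not independent. With 2 lists of 1 group no test was run. The code was tested on simulated data. Named genes are the 10 with the most called interactions, the 10 with the most promoters, 6 each with the highest and lowest leading share (10 or more calls), most shared regions and most calls in Hi-C, 4 without a call, and textbook genes, with ties taken by name. One gene that these rules name is not reported here. Members and lists were chosen with earlier results of these data known. Alternatives were each list alone, the authors' combined list, pairs over 15 kb, limits of 4 and 6, fragments merged within 1 kb, 1 locus per gene, a Hi-C tolerance of 1 kb and, added after seeing the data, fragments with over 5 regions.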

Additional observations from a re-analysis of the deposited data

How the results depend on the processing

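No paired analysis was possible because the 2 HiCap libraries form 1 group. With each list alone the number of genes was 225 to 327. The shares by each list were instead taken over the 432 genes and their 2570 promoters. Promoters with an interaction made up 74.5 to 89.3%, and genes with a dominant promoter 55.9% of 429 and 71.9% of 406. Shared regions made up 7.34 to 14.2% and interactions in Hi-C 2.87 to 5.05%. The authors' combined list gave 40.0% of promoters with a call and 10.7% in Hi-C. It named another fragment of the gene in 430 of 5122 interactions, at 79 fragments of which 1 stood in a replicate list. Over 15 kb the values were 32.5% of promoters, 54.2% dominant and 5.72% in Hi-C. With 4 or more promoters 1051 genes, 45.1% of promoters and 75.0% dominant were found, and with 6 or more 211 genes and 15.5% shared. A Hi-C tolerance of 1 kb gave 31.8% in Hi-C. Without promoters with few listed regions, left out after seeing the data, the values were 77.9% of promoters, 78.0% dominant and 11.5% shared. That filter uses the same lists as the calls and leaves fewer promoters per gene, so these 3 values say nothing on stability. All other shares lay within the interval of the main value and other gene numbers near it, including those with fragments merged within 1 kb (363 genes) and without Fgfr2 (431 genes). The lists hold no read numbers, so depth per promoter could not be weighed.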
